A study of Mus musculus with 4 samples.

Results

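Among 91858 accessible regions formed by merging 4 ATAC-seq peak lists from mouse macrophages, 53062 (57.8%) were called in every list, and 2791 of those (5.26%) lay in gene deserts. A region was counted as a far shared region when a peak of each of the 4 libraries overlapped it, its midpoint was outside every protein-coding gene body, and its midpoint was more than 100 kb from the start and end of each protein-coding gene on mm10. The regions were thus selected on peak calls and gene positions, so their presence in all libraries and their distance from genes are descriptions and were not tested.

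ATAC-seq inserts sequencing adapters into open DNA with a transposase and so maps accessible chromatin. The libraries came from bone marrow-derived macrophages, grown from mouse marrow for 7 to 10 days with medium from L929 cells, a source of the growth factor that drives macrophage differentiation. Littermate control mice gave the wild-type (WT) cells, and knockout (KO) cells came from Ezh2fl/fl;LysM-Cre+/- mice, with both Ezh2 alleles floxed and 1 copy of LysM-Cre, a Cre recombinase driven by the myeloid Lyz2 locus. All 4 libraries, 2 per genotype, were from cells exposed for 24 h to culture medium from Hepa1-6 cells, which are mouse hepatoma cells, so that exposure was shared by the controls and cells without it were not analysed here. The labels do not say whether replicates were separate mice or cultures, and the spread between libraries may therefore be technical. A peak list does not show whether the floxed Ezh2 exons were lost. The WT lists held 69210 and 72887 peaks, the KO lists held 67055 and 71111, and the read depth behind them is unknown. All 12 macrophage markers, among them Spi1, Csf1r and Adgre1, had a region within 1 kb of a gene end in all 4 libraries, against 2 of 6 T and NK cell, 2 of 6 neutrophil, 0 of 5 mast cell, 1 of 5 fibroblast, 1 of 6 hepatocyte and 2 of 5 erythroid markers.

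Gene deserts are long stretches of the genome without protein-coding genes. Many hold distal enhancers, which are bound by lineage transcription factors and can act on a remote promoter through chromatin looping. In macrophages, PU.1 opens many such sites together with C/EBP and AP-1 factors, and Ezh2 is the enzyme of Polycomb repressive complex 2, which methylates lysine 27 of histone H3 at silent developmental genes.

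Some far shared regions touched an annotated promoter within these deserts. In the promoter table of RefSeq for GRCm38.p6, the patched form of mm10, 65 far shared regions (2.33%) touched a promoter window running from 250 bases before to 50 after a gene start. They touched 76 windows of 67 gene symbols, and all 67 were long non-coding RNA (lncRNA) genes. The distance rule excluded protein-coding promoters in advance, so the absence of protein-coding genes here follows from the selection. The 6 windows below were picked after their values were seen, and their genes are known macrophage or microRNA host transcripts or lie beside the macrophage regulators Id2 and Jun. Each is printed 5′ to 3′ on the strand of its gene, and capitals mark every motif match among those searched, on either strand.
Morrbid, chr2:128429302-128429601, minus strand: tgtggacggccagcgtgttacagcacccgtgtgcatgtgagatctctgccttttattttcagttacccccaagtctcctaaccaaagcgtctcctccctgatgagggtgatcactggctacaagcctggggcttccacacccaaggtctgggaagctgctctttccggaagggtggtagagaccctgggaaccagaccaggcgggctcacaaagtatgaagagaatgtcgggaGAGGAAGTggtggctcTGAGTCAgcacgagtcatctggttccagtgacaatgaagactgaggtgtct
Gm46343, chr12:25303526-25303825, plus strand: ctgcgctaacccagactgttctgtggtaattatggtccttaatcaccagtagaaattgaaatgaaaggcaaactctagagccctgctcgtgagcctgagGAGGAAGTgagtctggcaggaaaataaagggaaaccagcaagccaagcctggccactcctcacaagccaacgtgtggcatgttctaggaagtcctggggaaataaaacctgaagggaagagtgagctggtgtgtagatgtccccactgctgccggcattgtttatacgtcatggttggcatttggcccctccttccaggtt
Gm12708, chr4:95193054-95193353, plus strand: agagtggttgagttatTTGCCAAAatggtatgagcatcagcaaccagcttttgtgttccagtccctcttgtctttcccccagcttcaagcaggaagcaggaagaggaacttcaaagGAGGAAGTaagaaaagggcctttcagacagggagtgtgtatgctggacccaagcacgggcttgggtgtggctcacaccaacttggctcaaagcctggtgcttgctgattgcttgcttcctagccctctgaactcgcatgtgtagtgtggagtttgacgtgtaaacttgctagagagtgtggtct
Mir99ahg, chr16:77329078-77329377, plus strand: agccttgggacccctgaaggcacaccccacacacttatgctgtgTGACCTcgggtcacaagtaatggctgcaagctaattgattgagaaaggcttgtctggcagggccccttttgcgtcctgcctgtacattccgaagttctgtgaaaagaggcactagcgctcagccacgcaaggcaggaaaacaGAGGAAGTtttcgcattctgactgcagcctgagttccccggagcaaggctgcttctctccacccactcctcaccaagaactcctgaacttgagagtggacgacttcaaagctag
Mir100hg, chr9:41474643-41474942, plus strand: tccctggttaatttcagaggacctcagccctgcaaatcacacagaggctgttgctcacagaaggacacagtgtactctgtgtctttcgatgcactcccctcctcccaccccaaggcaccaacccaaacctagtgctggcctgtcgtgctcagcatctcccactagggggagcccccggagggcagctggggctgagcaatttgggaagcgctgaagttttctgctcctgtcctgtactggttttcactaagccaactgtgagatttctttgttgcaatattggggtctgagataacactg
Mexis, chr4:53270183-53270482, minus strand: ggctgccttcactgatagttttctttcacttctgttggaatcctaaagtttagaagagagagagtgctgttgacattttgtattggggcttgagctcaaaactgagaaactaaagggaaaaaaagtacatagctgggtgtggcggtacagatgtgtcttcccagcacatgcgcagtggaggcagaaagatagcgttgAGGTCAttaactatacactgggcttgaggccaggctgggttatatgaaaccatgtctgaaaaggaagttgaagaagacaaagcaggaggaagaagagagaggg
In Morrbid, a myeloid lncRNA of the Bcl2l11 locus, the capitals are GAGGAAGT, the core letters of a PU.1 site, and TGAGTCA, an AP-1 site. The Gm46343 window, in a region 208 kb from Id2, holds GAGGAAGT alone, and the Gm12708 window, in a region 141 kb from Jun, holds it together with TTGCCAAA, a C/EBP-like match. The window of Mir99ahg, the host transcript of microRNAs miR-99a, let-7c and miR-125b-2, holds GAGGAAGT and TGACCT, the half-site of nuclear receptors. That of Mir100hg, the host transcript of the let-7a-2 and miR-125b-1 genes, holds none of the motifs searched. Mexis, a macrophage lncRNA of the Abca1 locus, shows AGGTCA, the reverse complement of that half-site.

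Each of these 6 regions was called in both genotypes, with folds from 3.88 to 7.57. Fold is the authors' deposited enrichment of a peak over local background, and it serves here only to describe and rank peaks within a list. The Morrbid region, chr2:128428260-128430013, had folds of 4.05 and 4.16 in WT against 4.17 and 4.01 in KO, and peaks covered 1727, 1718, 1719 and 1741 bp of it. At the Mexis region, chr4:53269657-53270384, 110 kb from Abca1, the cholesterol efflux transporter, the folds were 6.53 and 6.70 (WT) and 5.56 and 5.52 (KO). There the covered width ran the other way, with 401 and 422 bp in WT and 677 and 632 bp in KO, so that the genotypes did not overlap in either value. The region on Gm12708 was the opposite case, with 590 and 552 bp in WT, 341 and 417 bp in KO, and folds of 5.39 and 5.35 against 7.57 and 6.45. Over all shared regions, both KO libraries exceeded both WT libraries in width at 16.8% and fell below both at 15.5%, after centring each library on its median. The share without overlap in fold, or with fold and width moving in opposite directions, was not counted. Fold and width come from the same called peaks, and how far fold depends on width was not tested.

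Whole windows of 300 bases lay inside far shared regions in 41 cases, from 35 regions. The letters GAGGAAGT or their complement occurred in 8 of these 41 windows (19.5%), against 1052 of all 32851 windows in the table (3.2%) and 386 of 11588 lncRNA windows (3.33%). The 8 windows, from 8 regions, belonged to Morrbid, Mir99ahg, Gm12708, Gm46343, Gm38397, Gm32679, Gm34418 and 5031425F14Rik. The AP-1, C/EBP and nuclear receptor motifs stood nearer to their shares over all windows. TGANTCA (AP-1) was in 4 windows (9.76% against 7.81%), TTGCNNAA (C/EBP) in 5 (12.2% against 10.8%) and TGACCT in 7 (17.1% against 16.3%). GGAANTTCC (STAT-like) was in 2 (4.88% against 0.928%), GGGANTTCC (NF-kB-like) in 1 (2.44% against 1.68%) and the CTCF core in none. All motifs were searched on both strands, and the PU.1 and STAT-like letters can overlap. Some regions held several windows. Counted per region, TGACCT was in 5 of 35 (14.3%) and TTGCNNAA in 4 of 35 (11.4%). The 41 windows were accessible by selection and the comparison windows were not selected so. Windows under other shared regions were not counted, so no share is shown to be particular to deserts. These are counts of letters in a small set of lncRNA windows and show neither binding nor use of a site.

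Some far shared regions lay close to microRNA genes, although only 1 overlapped such a gene. The following mature sequences, from the same RefSeq assembly, belong to conserved families whose genes lie within 10 kb of a far shared region. Capitals mark the seed, bases 2 to 8, which pairs with target messenger RNAs.
miR-29a-3p: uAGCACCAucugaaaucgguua
miR-29b-3p: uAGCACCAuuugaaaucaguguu
miR-125b-5p: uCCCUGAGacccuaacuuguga
miR-99a-5p: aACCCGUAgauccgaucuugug
let-7c-5p: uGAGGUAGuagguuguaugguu
Both miR-29 members share the seed AGCACCA, and their genes Mir29a and Mir29b-1 lay 2690 and 2344 bp from chr6:31065437-31065893, in the gap between Klf14 and Mkln1. That region had folds of 5.81 and 6.16 in WT libraries and 5.99 and 5.64 in KO libraries. The same mature miR-125b-5p is encoded by Mir125b-2, 1603 bp from a far shared region between Usp25 and Cxadr, and by Mir125b-1, 6799 bp from one between Ubash3b and Gm40514. Mir99a and Mirlet7c-1 lay 3609 and 2859 bp from chr16:77602609-77603035, which had folds of 7.30 and 7.85 in WT against 8.04 and 7.73 in KO and ranked above 92.7% of the peaks in every list. Both duplicated clusters of let-7 and miR-125b genes, on chromosomes 16 and 9, thus had accessible sites nearby in all 4 libraries. Those on chromosome 9 were weaker. The region 8981 bp from Mirlet7a-2 had a smallest within-list percentile of fold of 13.9, and that near Mir125b-1 had 35.5.

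The share of accessible regions called in all libraries was lower in most bins farther from genes. Of 6616 merged regions over 100 kb from genes, 42.2% were called in all 4 libraries (exact Clopper-Pearson 95% interval 41.0 to 43.4), against 58.97% (58.6 to 59.3) of the 85242 others. These intervals cover counting error only. The share was 78.9% within 1 kb of a gene end, 59.6% inside genes, 49.4% at 50 to 100 kb, 44.7% at 100 to 200 kb, 40.2% at 200 to 500 kb and 35.8% at 500 kb to 1 Mb. Beyond 1 Mb it was 37.5%, from 144 regions, with an interval (29.6 to 45.9) that spans the neighbouring values. Regions called in a single library made up 35.1% of the far regions and 22.1% of the others. The number of far regions called was 4219 and 4659 (WT) and 3911 and 4423 (KO), in the same order as the lengths of the 4 lists.

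**Figure D1:**
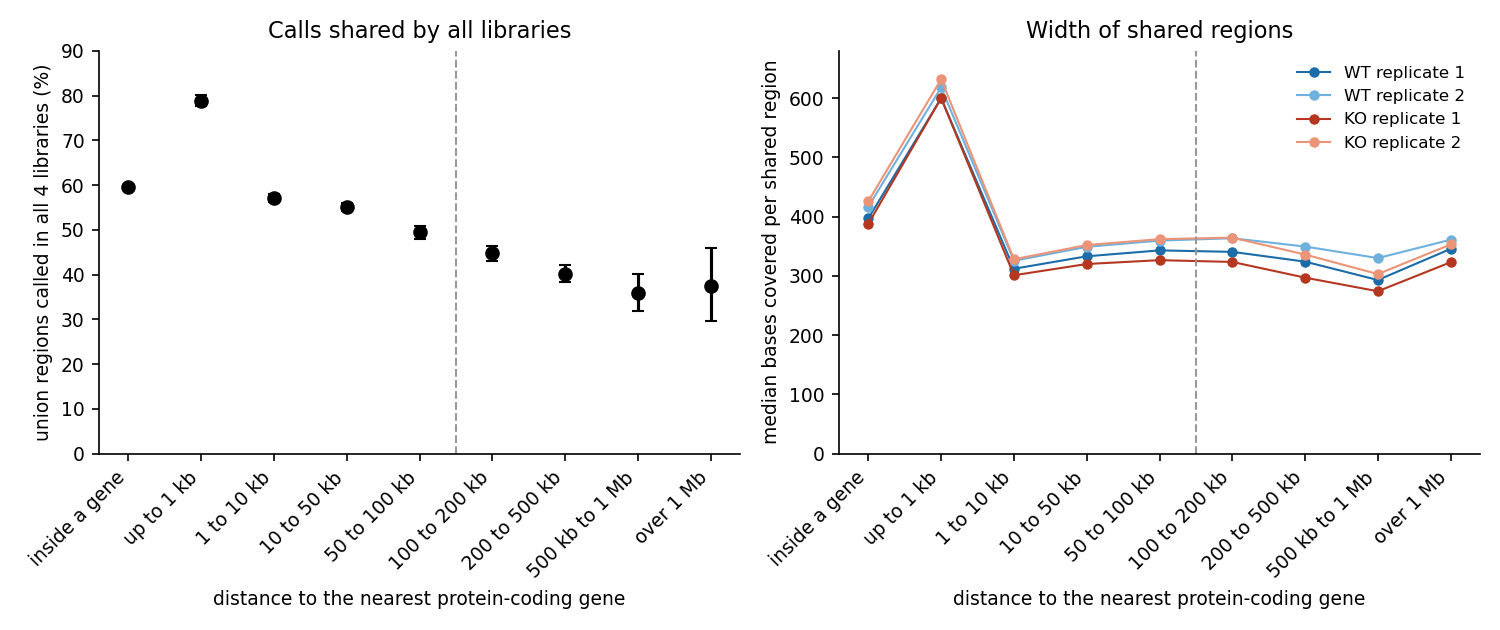
Left, percent of merged regions called in all 4 libraries by distance of the midpoint from the nearest protein-coding gene, with exact 95% intervals that cover counting error only; right, median bases covered by each library's peaks per region called in all 4 (1 line per library). The dashed line marks 100 kb: the share falls from 78.9% within 1 kb to 35.8% at 500 kb to 1 Mb, while median widths outside genes beyond 1 kb run from 274 to 364.5 bp.

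Far shared regions were narrower than the other shared regions as a whole in each library, but wider in each than those 1 to 10 kb from genes. Their median covered width was 333 and 356 bp in WT and 310 and 350 bp in KO, against 380, 398, 369 and 405 bp for regions inside or near genes. The difference was −50.75 ± 7.68 bp (SD, n = 4 libraries) and negative in 4 of 4 libraries (exact two-sided sign-flip test, p = 0.125, the smallest this design allows). Among the other shared regions, those within 1 kb of a gene end had medians of 600 to 632 bp, those inside genes 388 to 426 bp, those at 1 to 10 kb 301 to 328 bp, and those at 10 to 50 kb 320 to 352 bp. Merged widths of far shared regions ran from 114 to 3137 bp, with a median of 465 bp, and 6.99% exceeded 1 kb against 12.9% of the others. Ranked by fold within each list, their median percentiles were 58.4, 60.4, 57.0 and 60.4, against 60.9, 62.8, 59.95 and 62.1 for the others. That difference of −2.35 ± 0.53 percentile points (SD, n = 4) was negative in all 4 libraries, with the same exact p of 0.125. Regions 1 to 10 kb from genes had lower median percentiles than the far ones, of 56.4, 58.0, 54.1 and 57.0. At the top of the lists the order turned: 18 far shared regions (0.645%) were in the highest 1% of fold in every list, against 0.328% of the others.

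Strength is ranked here, and in each desert below, by the smallest of a region's 4 within-list percentiles of fold. The strongest far shared regions were narrow sites of similar width in all libraries. Whether a ranking by fold favours narrow calls was not tested. Highest was chr18:28257691-28257899, 2008 kb from Pik3c3, the farthest from any protein-coding gene of all 2791. Its folds were 28.5 and 24.0 in WT libraries and 24.0 and 25.2 in KO libraries, and the peaks covered 207 to 209 bp. Next by this rank came chr5:60042839-60043085, 1766 kb from G6pd2, with folds of 17.7, 17.4, 15.9 and 17.03. A further 6 strong regions had folds between 13.8 and 19.5 in all libraries. They included chr12:97061434-97061786, where each library covered the same 353 bp, chr6:103314599-103314724 near Chl1, chr6:9889948-9890153 near Nxph1, and chr4:122122860-122122992 and chr4:122455237-122455357, which lay 178 and 141 kb from Gm10573. Also among them was chr4:153673935-153674233, 190 kb from Ajap1, with folds of 19.5 and 19.0 in WT but 16.02 and 14.2 in KO. None of these 8 lay in the 12 deserts with most far shared regions.

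The widest far shared regions, ranked by the smallest of the 4 covered widths, were different ones. In first place was chr17:13550693-13553163, between Tcp10c and Tcte2, where peaks covered 2465 and 2470 bp in WT and 2469 bp in both KO libraries. Next were chr2:166446330-166448138, 119 kb from Prex1, a Rac exchange factor, with 1723 to 1782 bp, and the Morrbid region with 1718 to 1741 bp. At chr10:99459685-99461922, 193 kb from Dusp6, a phosphatase of ERK kinases, the widths were 1737, 1602, 1741 and 2220 bp. The longest merged region, chr7:59767049-59770185 at 3137 bp, came after these, and peaks covered 1947 and 1528 bp of it in WT, 1958 bp in KO replicate 1 and 3116 bp in KO replicate 2. The nearest regions on either side of the 100 kb limit were ordinary: chr13:100933255-100933737, at 100.016 kb from Slc30a5, had folds of 3.25 to 4.49, and chr2:146612079-146612428, at 99.999 kb from Ralgapa2, was left out with folds of 3.67 to 5.41.

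The genome held 1701 gaps with territory over 100 kb from any protein-coding gene, and 652 of them contained a far shared region. A single region was found in 250 of these gaps, 185 held 5 or more and together 1933 regions (69.3%), and 76 held 10 or more with 1214 regions (43.5%). The 98 richest gaps held 50% of the far shared regions. The share of gaps that held at least 1 ran from 24.8% of gaps of 200 to 300 kb to 63.9% of gaps over 2 Mb. Per megabase of far territory the order was the reverse, from 11.4 in the shortest gaps to 1.3 in the longest. Chromosomes 13 and 10 had most, with 269 and 268 regions and 8.0 and 7.9 per far megabase, while X had 69 (1.14 per megabase) and Y had 17 (0.359 per megabase).

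**Figure D2:**
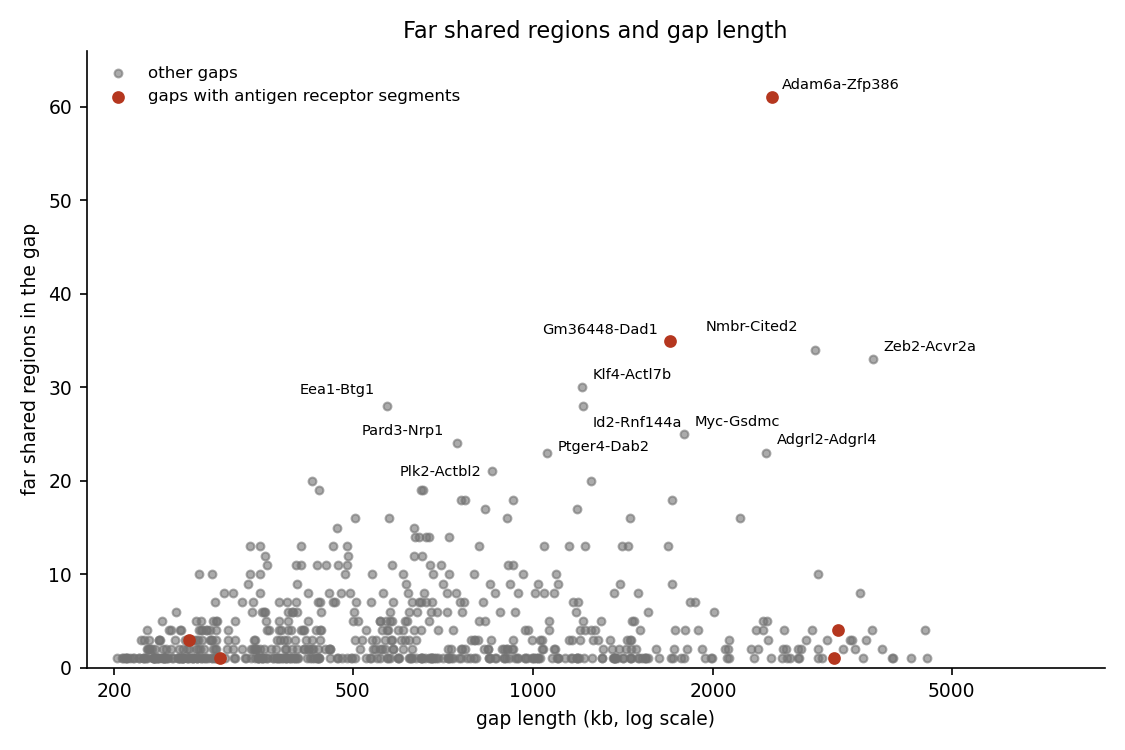
Number of far shared regions (vertical axis) against the length of the gap between neighbouring protein-coding genes in kb (log scale), 1 point per gap that holds at least 1; red points are gaps with immunoglobulin or T cell receptor gene segments. The 12 richest gaps are named by their flanking genes, with 61 regions between Adam6a and Zfp386 at the top and 21 between Plk2 and Actbl2 as the lowest named.

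Both of the richest deserts were antigen receptor loci, which the gene table lists as segments and not as protein-coding genes. Between Adam6a and Zfp386 on chromosome 12 (positions 113546415 to 116047713), the immunoglobulin heavy chain locus Igh held 61 far shared regions of 104 far regions called in any library, and 34 of the 61 overlapped an immunoglobulin V segment. The strongest, chr12:115802534-115802998, had folds of 7.95 and 8.24 in WT against 7.98 and 8.74 in KO. The nearest to Adam6a was 833 kb away, and 50 of the 61 were closer to Zfp386. Between Gm36448 and Dad1 on chromosome 14, the T cell receptor alpha locus Tcra held 35 of 84, and 15 overlapped a V segment. Its strongest region, chr14:53804179-53804624, had folds of 6.98, 4.96, 5.51 and 5.70. In all, 6 gaps with such segments held 105 far shared regions (3.76%). Of the B cell markers reported, Pax5, Ebf1, Cd79b and Ms4a1 had no gene-end region called in all 4 libraries and Cd79a had one. Cd3d and Klrb1c did among the T and NK cell markers, and Cd3e, Cd3g, Cd2 and Lck did not. The part of other cells in these calls was not tested. In bulk libraries, fewer cells with a site open and less signal per cell cannot be told apart.

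**Figure D3:**
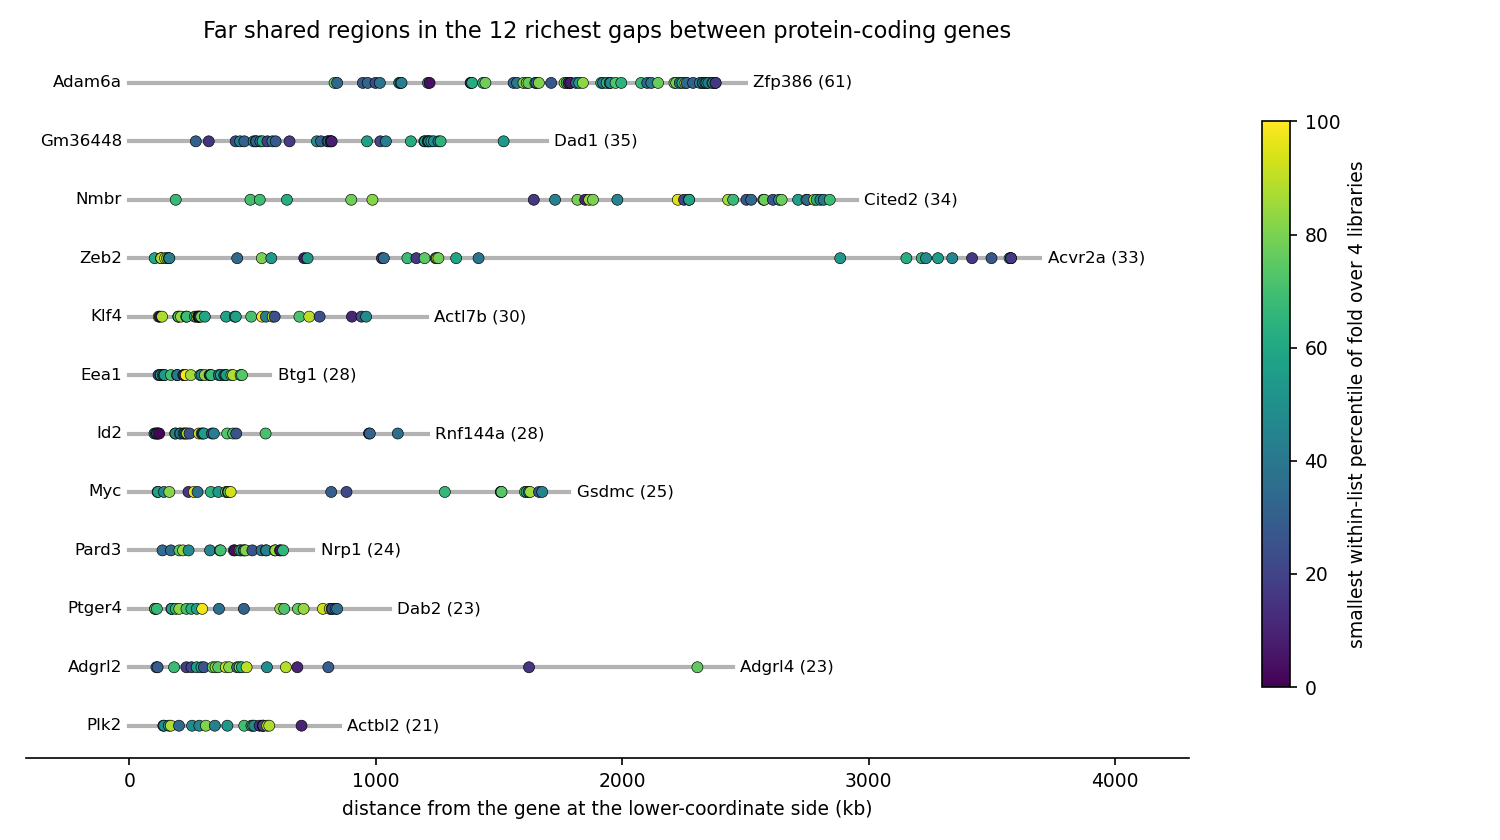
Positions of far shared regions in the 12 richest gaps, drawn to scale as distance in kb from the flanking gene named at left; the gene named at right is followed by the number of regions in the gap. Point colour is the smallest of the 4 within-list percentiles of fold. In the Zeb2, Klf4, Id2 and Adgrl2 gaps most points lie toward the gene at left, and in the Igh and Nmbr gaps toward the right.

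The other 10 of the 12 richest deserts held no antigen receptor segments, and several faced regulators of macrophage identity. Between Zeb2, a zinc finger repressor of the mononuclear phagocyte lineage, and Acvr2a, an activin receptor, 33 far shared regions were spread over 3476 kb, the widest spread among the 12. A group of 7 lay 103 to 162 kb from the 5′ end of Zeb2, including chr2:45261739-45262566, with folds of 9.40 and 10.3 (WT) and 8.48 and 8.40 (KO). The non-coding transcripts Vis1 and Gm13481 overlapped 6 and 5 of the 33. Median folds of the 33 were 5.19 and 5.12 in WT libraries and 5.18 and 5.08 in KO libraries, close to each other in all 4 libraries.

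Between Klf4, a Krüppel-like factor active in monocytes and alternatively activated macrophages, and Actl7b, an actin-like testis gene, there were 30 far shared regions of 49 called in any library. Regions within 100 kb of a gene were left out by definition. The nearest of the 30 was 119 kb from the 5′ end of Klf4, and 24 of them were closer to Klf4 than to Actl7b. The strongest, chr4:56070554-56071160, was 538 kb from Klf4 with folds of 9.85 and 8.34 in WT against 10.7 and 9.30 in KO. A run of 8 regions within 41.5 kb stood 265 kb from Klf4. Only 2 of the 30 overlapped an annotated lncRNA, Gm34628 and Gm42291.

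Id2, an inhibitor of E-protein transcription factors, faced 28 far shared regions in the 1211 kb gap to Rnf144a, a ubiquitin ligase gene, and 25 of them were closer to Id2. With those within 100 kb left out by definition, the nearest was 102 kb from the 5′ end of Id2. The strongest, chr12:25378103-25378527 at 282 kb, had folds of 7.94, 7.63, 9.32 and 7.07. The lncRNAs Gm36287 and Gm36723 overlapped 6 each.

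Downstream in coordinate from Myc, a growth-promoting transcription factor, the 1786 kb gap to Gsdmc, a gasdermin gene, held 25 far shared regions of 54. They formed a near group within 411 kb of Myc and a distal group 1507 to 1675 kb away, with 3 regions between. The lncRNA Pvt1 overlapped 6. The strongest region, chr15:62251991-62252408, lay 262 kb from Myc and had folds of 10.1 and 9.46 (WT) and 10.8 and 8.40 (KO). On the other side of Myc, the 1064 kb gap to A1bg held 5.

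Btg1, which restrains proliferation, and Eea1, an endosome tether, enclosed the most compact of the 12 richest deserts, with 28 far shared regions of 37 in 571 kb, or 75.4 per far megabase. Its strongest region, chr10:96273931-96274494, had folds of 8.61 and 9.52 in WT libraries and 10.4 and 9.33 in KO libraries. Between Ptger4, the EP4 receptor for prostaglandin E2, and Dab2, an endocytic adaptor, there were 23 of 31. Chr15:5539282-5539890, 295 kb from Ptger4, had folds of 9.39, 8.06, 8.72 and 8.47, and even the weakest of the 23 ranked above 20.6% of the peaks in every list. Pard3, a polarity gene, and Nrp1, a semaphorin and VEGF co-receptor, enclosed 24 of 31, the highest share called in all 4 libraries among the 12 (77.4%).

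Among the remaining deserts of the 12, the 2952 kb gap between Nmbr, a neuromedin receptor, and Cited2, a transcriptional coregulator, held 34 far shared regions, 28 of them closer to Cited2. Chr10:16996714-16997448 there had folds of 7.65 in both WT libraries and 10.3 and 8.10 in KO. Between the adhesion receptors Adgrl2 and Adgrl4, 21 of 23 were closer to Adgrl2, and 13 overlapped the lncRNA Gm30382. Between Plk2, a polo-like kinase, and Actbl2, 21 of 30 regions were shared, and the strongest, chr13:110960036-110960575, had folds of 8.99, 8.55, 8.59 and 7.46.

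The most densely filled deserts were short gaps of 240 to 337 kb. Among gaps with at least 5 far shared regions, the 277 kb between Smim20 and Rbpj, the DNA-binding factor of Notch signalling, had the most per far megabase (129). All 10 far regions called there in any library were called in all 4, in a single run of 76.8 kb. Their median folds were 5.88 and 5.34 in WT against 5.65 and 5.68 in KO. Next were Cebpb to Ptpn1 with 5 of 5 regions (124 per megabase), Nr3c1 to Pabpc2 with 6 of 7 (111), Glul to Zfp648 with 10 of 14 (109) and Irf2bp2 to Tomm20 with 13 of 16 (95.1). Cebpb encodes a C/EBP factor of macrophages, Nr3c1 the glucocorticoid receptor, Glul glutamine synthetase and Irf2bp2 a corepressor of interferon regulatory factor signalling.

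Elsewhere far shared regions ran in clusters or stood alone. Joined where the gap between neighbours was at most 15 kb, they formed 1849 clusters, and 1329 regions (47.6%) stood alone. There were 54 clusters with 5 or more, which held 328 regions. The largest, with 11 regions in 46.2 kb, lay between Ube3a and Snurf, in the imprinted domain of chromosome 7. Runs of 8 were found between Ado and Zfp365, beside Klf4, between Cd83 and Jarid2, beside Trib1, and between Uaca and Tle3. The Ube3a to Snurf run was weak. The median of its regions' smallest within-list percentiles of fold was 4.46, against 23.4 to 57.0 in the runs of 8.

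Other long deserts held no far shared region. The 4420 kb between Olfm4 and the protocadherin gene Pcdh17 held 2 regions called in some libraries and none called in all 4. The other gaps among the 5 longest were Lrrc4c to Iftap (3929 kb), Igfbp7 to Adgrl3 (3611 kb), Stim2 to Pcdh7 (3595 kb) and D3Ertd751e to Pcdh10 (3575 kb), with 2 to 5 regions called in some libraries each. Some gaps of similar length beside protocadherin genes did hold far shared regions, with 1 in the 4542 kb between Pcdh20 and Pcdh9 and 4 in the 3676 kb between Pcdh7 and G6pd2.

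Flanking genes were next described by list, beside all protein-coding genes. Of 21887 protein-coding genes, 2819 flanked a gap over 200 kb, 43.0% of these flanked a gap with a far shared region, and 13.2% one with 5 or more. Of 65 macrophage transcription factors, 24 flanked such a gap, 20 of the 24 (83.3%) one with a far shared region, and 15 (62.5%) one with 5 or more. For 88 macrophage effectors and receptors the counts were 21, 18 (85.7%) and 10 (47.6%). Of 120 developmental regulators, 76 flanked a desert, 31 (40.8%) one with a far shared region and 12 (15.8%) one with 5 or more. Genes of neural adhesion and ion channels flanked deserts in 97 of 114 cases, with 51 (52.6%) and 8 (8.25%). The lists were composed with earlier results of these data known, so the counts are a description and were not tested.

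Transcription factors on the first list flanked deserts of varied depth. Each count in this paragraph is of the whole gap, so some regions were closer to the gene at its other end. Klf6 had far shared regions on both sides, 20 toward Akr1e1 and 7 toward Pitrm1. Runx1, needed for blood stem cells, had 18 toward Setd4, Jun, an AP-1 subunit, had 16 toward Fggy, and Nfkbiz, an NF-kB cofactor, had 11 toward Zpld1. Maf and Prdm1 had 10 each, and Bcl6 and Mef2c had 9 each. Regions beside Prdm1 had median folds of 5.95 and 5.63 (WT) and 6.07 and 5.64 (KO), and those beside Nfkbiz had 6.29, 6.13, 5.70 and 6.16. Among effectors and receptors, Cd83, a marker of activated antigen-presenting cells, and Thbs1, a matrix glycoprotein, had 18 each. In the Cd83 gap 15 of the 18 were closer to Jarid2 at the other end, and in the Thbs1 gap 13 were closer to Thbs1. Dusp4 had 14, Trib1, a pseudokinase that controls C/EBP alpha turnover, had 12, and the chemokine receptor Cxcr4 and the cystine transporter Slc7a11 had 10 each. Tnfaip3, which restrains NF-kB signalling, had 7, the nearest 102 kb away, and Tgfbr2 had 6, with median folds of 6.91 and 5.97 in WT libraries and 7.48 and 6.54 in KO libraries. On the developmental list, Bcl11a had 16, Sall3 had 13, Sox4 had 10, and Sox9, Sox5, Tshz1 and Hmga2 had 8 each. Of the 16 beside Bcl11a, 11 were closer to Fancl at the other end. Only 1 of the 13 beside Sall3 lay within 500 kb of it. Pou4f1 had 5, which lay 423 to 516 kb from it in the 617 kb gap to Ednrb, and so closer to Ednrb. Their median folds were 7.20 and 6.98 (WT) and 7.31 and 7.72 (KO). These were above the medians beside Prdm1 and Nfkbiz in every library.

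Promoters of the flanking genes were described next. Where the promoter table held a flanking gene, a region called in all 4 libraries lay on its promoter window in 31.5% of 1386 genes beside gaps with no far shared region (95% interval 29.1 to 34.0). The share was 41.4% with 1 far shared region in the gap, 53.4% with 2 to 4, 65.7% with 5 to 9 and 71.7% (62.7 to 79.5) with 10 or more, against 52.9% over all 17492 genes in the table. Of the flanking genes on the lists that the table held, 18 of 19 macrophage transcription factors and 12 of 14 effectors had a shared region on the promoter. This compared with 4 of 49 developmental regulators and 5 of 78 neural genes. Over all flanking protein-coding genes that the table held, it was 887 of 2162 (41.0%). Promoters and far regions come from the same libraries, and a gene may flank a gap on each side.

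**Figure D4:**
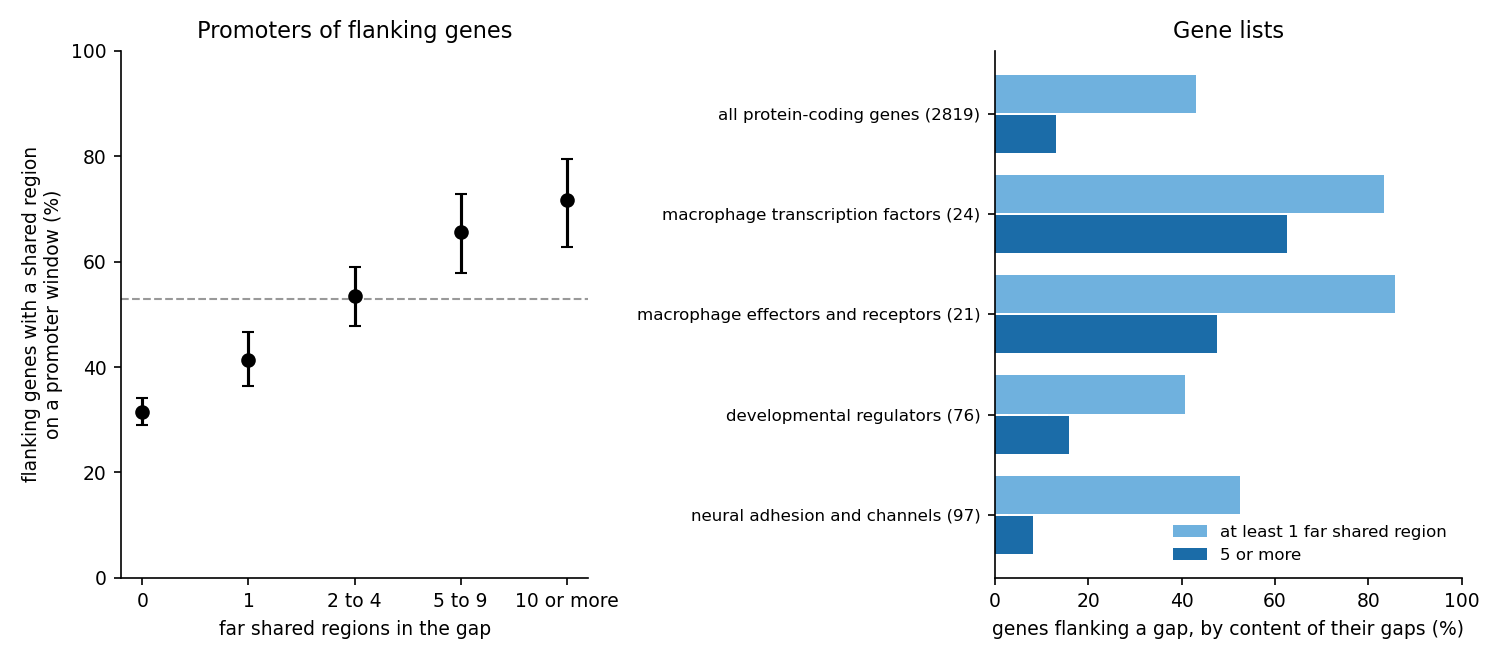
Left, percent of flanking protein-coding genes with a region called in all 4 libraries on a promoter window, by the number of far shared regions in the gap, with exact 95% intervals that cover counting error only; the dashed line is the 52.9% over all genes in the table. Right, percent of the genes of each list that flank a gap over 200 kb (number in brackets) whose gaps hold at least 1 or at least 5 far shared regions, highest for both macrophage lists.

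Protein-coding deserts were not free of annotated transcripts. Of the 2791 far shared regions, 847 (30.3%) overlapped a non-coding gene and 707 (25.3%) a lncRNA, against 22.9% with any non-coding gene among far regions called in 1 to 3 libraries. Antigen receptor loci count as non-coding genes here, so the 61 regions in Igh and 35 in Tcra are among the 847. With genes of every type counted, 287 far shared regions were still over 100 kb from any gene.

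Genotype was compared on the covered width of shared regions. The choice of regions used whether a library's peaks covered any of a region, but not the size of that width. A region that lacked a peak in any library could therefore not enter the test. No region passed the test for a change. In a limma fit of log2 covered width over all 53062 shared regions, with Benjamini-Hochberg adjustment, 0 (0%) passed an adjusted p of 0.05 in either direction, and the smallest adjusted p was 0.612. Without adjustment, p was under 0.05 at 1493 shared regions higher in KO (2.81%) and 1645 lower (3.1%), and at 68 (2.44%) and 113 (4.05%) of the far ones. The median KO minus WT difference in log2 width was −0.02 over far shared regions and 0.01 over the others, small beside the median SD within genotypes of 0.27 and 0.22. Both KO libraries were above both WT libraries in centred width at 399 far shared regions (14.3%), where the background over all shared regions was 16.8%. Both were below at 500 (17.9%), where the background was 15.5%. When the rank by fold had to move in the same direction as the width, 49 far shared regions (1.76%) were above and 84 (3.01%) below, where the background was 1.99% and 1.88%. None of these regions passed the adjusted test. Of the 6616 merged far regions, 192 (2.90%) were called in both WT libraries alone and 114 (1.72%) in both KO libraries alone, while the pairs that cross genotype gave 79, 111, 96 and 195. Among merged regions inside or within 100 kb of genes, 1.96% were called in both WT libraries alone and 1.45% in both KO libraries alone. A further 2320 far regions were called in a single library and so in 1 genotype as well.

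**Figure D5:**
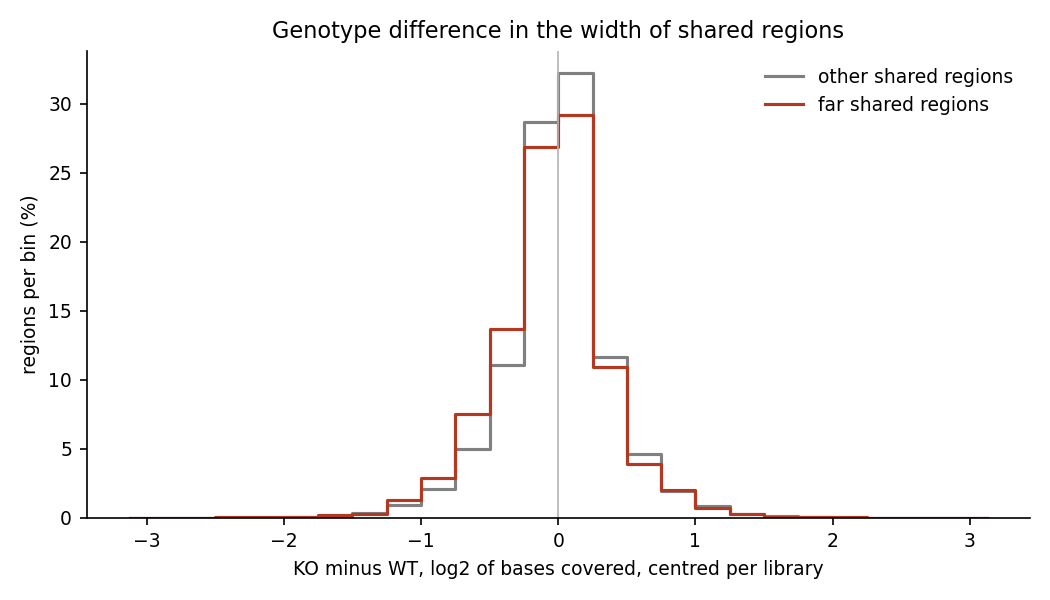
Distribution of the KO minus WT difference in log2 covered width, centred on each library's median, as percent of regions per bin for far shared regions (red) and other shared regions (grey). Both centre near 0, with medians of −0.02 and 0.01.

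The far shared regions with the largest width differences did not pass the test. The largest gain of width in KO was at chr3:10712684-10715228, 274 kb from Snx16, where peaks covered 691 and 325 bp in WT and 1800 and 2452 bp in KO, a log2 difference of 2.16 ± 0.44 (SE; limma adjusted p = 0.617). The largest loss of width was at chr13:6009591-6010566, 140 kb from Klf6, where peaks covered 560 and 976 bp in WT and 119 and 159 bp in KO, a log2 difference of −2.41 ± 0.31 (SE; limma adjusted p = 0.612), while the folds were 3.75 and 3.62 against 3.47 and 3.50. The next largest loss was at chr8:20049515-20050088, 114 kb from 9530057J20Rik, with 466 and 574 bp in WT, 103 and 133 bp in KO, and a log2 difference of −2.13 ± 0.20 (SE; limma adjusted p = 0.612). In the Igh locus, chr12:114932280-114932892 was covered over 116 and 192 bp in WT and 550 and 603 bp in KO, with a log2 difference of 1.96 ± 0.28 (SE; limma adjusted p = 0.612). At chr10:96407919-96408549, between Eea1 and Btg1, the widths were 479 and 621 bp in WT and 192 and 120 bp in KO. The median log2 width difference of the 33 regions beside Zeb2 was −0.23, and that of the 34 between Nmbr and Cited2 was −0.12. The 30 beside Klf4 had a median of 0.13. Without overlap between genotypes, 1 of the 34 Nmbr regions was above and 11 were below in KO, against a background of 16.8% above and 15.5% below. The counts were 3 above and 8 below beside Zeb2, 1 and 6 beside both Myc and Adgrl2, 2 and 5 beside Plk2, 3 and 5 beside Klf4, and 6 and 6 beside Id2. More were above than below in Igh (10 and 6), Tcra (7 and 3) and the gaps beside Ptger4 (4 and 2), Eea1 (4 and 3) and Pard3 (3 and 2). Over the 12 richest deserts these medians ran from −0.23 to 0.13, and no region in them passed the test.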

How the data were processed

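ATAC-seq was deposited as 4 broad peak lists, 1 per library. The submitters' processing notes name fastp, Bowtie2, MACS2 and mm10, without versions, and the peak filter is not stated in the sources used here. Per the layout of the deposited lists, each peak has a score, a fold value over local background, and −log10 p and −log10 q from the peak caller. Samples were grouped by their titles. A B cell marker is not reported here.

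Peaks were merged wherever they overlapped by at least 1 bp, and any overlap by a peak counted as a call by that library. Deserts are gaps over 200 kb between protein-coding genes of the RefSeq table of GRCm38.p6, with chromosome ends also counted, and 21887 such genes were used. Covered width is the number of bases of a merged region under a library's peaks. It was tested as log2 values, centred on each library's median, with limma 3.58.1 in R 4.3.3. Simulated data with planted changes served to check the size of the fit's estimates only. How many true changes 2 libraries per genotype can detect is not reported here. Medians per library were compared with an exact sign-flip test (Python 3.11.15, numpy 2.4.6). Intervals are exact Clopper-Pearson at 95%.

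The deposited files give no read counts, so depth is unknown. The members, gene lists and tests were chosen with earlier results of these data known. Named were the 12 richest and 5 densest deserts, the 5 longest empty ones, the 8 strongest and 5 widest regions, flanking genes on the lists beside gaps with 5 or more far shared regions, and the largest genotype differences. The strongest region of a named desert, and the 6 promoters and 5 microRNAs printed, were picked after their values were seen. Motifs were counted in the table's promoter windows only, since no genome sequence was used here, and the planned count over all regions was not run. Replicate numbers were taken from the titles. Alternatives covered distance, gene types, region edge, peak strength, coverage, chromosomes, scaling and each library left out.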

Additional observations from a re-analysis of the deposited data

How the results depend on the processing

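The number of far shared regions follows its definition. It was 5169 at over 50 kb, 1215 at over 200 kb, 287 with genes of any type and 1850 when a library's peaks had to cover at least 50% of a region, against 2791, and 2918 to 3070 with 1 library left out. The percent of far regions called in all libraries (42.2%) was 45.2%, 39.3%, 36.8% and 27.96% under the same 4 settings, 53.9% with the weakest 25% of each list removed, 49.5% with −log10 q of at least 2, and 48.4 to 49.9% with 1 library left out. The width difference between far and other shared regions (−50.75 bp) was −62.75 bp at over 200 kb, −64 bp with genes of any type, −66 bp without the weakest peaks and −71.5 bp at 50% coverage, and −53.3 to −47 bp with 1 library left out. It was negative under every alternative run. The settings themselves change which regions enter, and no further cause was tested.

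The limma fit gave 0 calls under all 9 alternatives, for all and for far shared regions, with 100 to 241 far regions at an unadjusted p under 0.05. With the replicate number as a block there were also 0 calls (smallest adjusted p 0.896). The numbers were not shown to pair the samples: deviations of same-numbered libraries correlated at 0.01 over all shared and −0.03 over far shared regions, from 2 pairs. Leaving out the antigen receptor loci, chosen after seeing the data, lowered the share of far shared regions in the 10 richest deserts from 11.5% to 10.01%. Read depth is unknown, so a region missing from a list may be below that library's detection.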
